A study of Mus musculus with 14 samples.

Results

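Regions of the mouse genome marked by H3K4me3 at the starts of noncoding genes, and at no protein-coding gene start, were described in LSK cells of mice on 2 diets. The 7 H3K4me3 peak lists were merged where peaks overlapped or touched, which gave 14659 consensus regions. A region was kept when it came within 1 kb of the start of at least 1 gene not typed protein-coding and of no protein-coding gene. The rule used position alone and kept 730 regions, 4.98% of all. A further 10007 regions lay at a coding start, 3899 lay away from any start, and 23 near a coding gene of unknown strand were set aside.

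H3K4me3 is trimethylation of lysine 4 on histone H3. It collects on the nucleosomes around active or poised RNA polymerase II promoters, in particular those rich in CpG dinucleotides, and its level and breadth vary with promoter activity. Long noncoding RNAs (lncRNAs) and the hosts of small nucleolar RNAs and microRNAs are RNA polymerase II transcripts and can carry the mark. Genes of tRNA, Y RNA, vault RNA, and 7SL RNA are transcribed by RNA polymerase III.

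LSK cells are lineage-negative, Sca-1+, c-Kit+ cells of the bone marrow, a sorted population that holds hematopoietic stem and progenitor cells. They came from male C57BL/6J mice, bought at 3 to 4 wk of age and kept for 16 to 20 wk on a high-fat diet (HFD, 60% of kcal from fat) or a low-fat diet (LFD, 10% of kcal from fat), with no transgene or deletion in either group. The assay was CUT&Tag by the study's account, in which an antibody tethers a transposase to the marked chromatin, while the sample titles say CUT&RUN. It gave 3 HFD-LSK and 4 LFD-LSK H3K4me3 libraries, each with its own peak list. The labels do not say whether a library came from 1 mouse or from several, so p values measure the spread between these libraries. Of 12 LSK marker genes, 11 had a region at their start, 6 of them called in all 7 lists, and Ly6a, which encodes Sca-1, had none. None of the 12 markers of T cells, B cells, and neutrophils had one, while 2 of 4 stromal markers (Cxcl12 and Pdgfrb) did, in 2 lists each.

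The promoter sequences of 5 genes give examples of the DNA at starts that these regions met. Each line gives a 300 bp window, from 250 bp before the start to 50 bp after it, from RefSeq GRCm38.p6, on the strand of the gene and 5′ to 3′, with CpG dinucleotides in capitals. 2810410L24Rik (chr11:120189807-120190106, minus strand) had the strongest region that met no other coding transcript, Chaserr (chr7:73558346-73558645, minus strand) is a lncRNA that restrains its neighbor Chd2, and 2900024J01Rik (chr1:180777711-180778010, plus strand) had the largest difference in rank among regions whose diets did not overlap. C030034I22Rik (chr17:69416197-69416496, plus strand) had a strong region beside a window with no CpG. Gm33224 (chr1:166049043-166049342, minus strand) was at the region called in every HFD-LSK and no LFD-LSK list.
2810410L24Rik: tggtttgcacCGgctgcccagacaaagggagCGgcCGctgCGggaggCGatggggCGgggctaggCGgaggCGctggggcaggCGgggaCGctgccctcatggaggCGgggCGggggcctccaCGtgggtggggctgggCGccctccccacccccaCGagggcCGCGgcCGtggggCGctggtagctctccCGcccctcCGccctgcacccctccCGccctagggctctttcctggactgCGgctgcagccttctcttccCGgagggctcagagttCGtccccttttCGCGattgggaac
Chaserr: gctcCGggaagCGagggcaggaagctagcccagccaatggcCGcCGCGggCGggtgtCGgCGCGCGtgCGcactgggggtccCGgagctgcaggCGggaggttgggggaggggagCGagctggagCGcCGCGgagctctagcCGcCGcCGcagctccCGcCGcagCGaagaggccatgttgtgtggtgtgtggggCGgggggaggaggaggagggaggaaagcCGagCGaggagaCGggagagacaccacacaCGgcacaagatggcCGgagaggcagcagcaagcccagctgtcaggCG
2900024J01Rik: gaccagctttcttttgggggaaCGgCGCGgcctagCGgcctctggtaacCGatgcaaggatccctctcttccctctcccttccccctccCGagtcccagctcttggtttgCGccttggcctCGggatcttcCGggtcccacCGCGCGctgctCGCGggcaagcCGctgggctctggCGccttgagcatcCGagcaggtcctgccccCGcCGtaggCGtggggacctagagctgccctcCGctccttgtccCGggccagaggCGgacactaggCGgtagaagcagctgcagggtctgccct
C030034I22Rik: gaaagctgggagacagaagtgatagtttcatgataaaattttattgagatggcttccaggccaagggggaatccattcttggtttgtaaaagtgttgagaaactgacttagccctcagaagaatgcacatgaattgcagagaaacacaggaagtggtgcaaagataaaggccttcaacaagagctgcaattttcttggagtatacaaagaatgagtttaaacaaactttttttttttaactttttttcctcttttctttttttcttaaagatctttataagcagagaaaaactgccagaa
Gm33224: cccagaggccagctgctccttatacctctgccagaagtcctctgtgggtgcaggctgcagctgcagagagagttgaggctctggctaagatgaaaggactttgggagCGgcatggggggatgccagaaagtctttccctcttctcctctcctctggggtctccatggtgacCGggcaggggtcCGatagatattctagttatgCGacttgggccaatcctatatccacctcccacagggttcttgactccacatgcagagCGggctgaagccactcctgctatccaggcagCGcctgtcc
These windows held 27, 30, 24, 0, and 6 CpGs, with a GC content of 74%, 72.3%, 68%, 35.3%, and 57.7%, respectively. The Gm33224 window itself lies outside its region, which ends within 1 kb of the start.

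Mature microRNAs whose genes lay at regions called in all 7 lists are shown next because the seed, bases 2 to 8 in capitals, sets the targets of a microRNA. A gene lay at a region when its annotated start came within 1 kb, so the mature sequence can lie outside the region. That was the case for miR-17, miR-18a, miR-21a, miR-22, miR-193b, and miR-425. In all, 53 microRNA genes lay at noncoding-start regions and 51 of them had a mature sequence in RefSeq GRCm38.p6. At regions called in all 7 lists there were 27 mature sequences from 14 genes, with 27 different seeds. The lines give 1 arm of each of 8 genes, with miR-193a from a region called in 4 lists, because it has the seed of miR-193b.
let-7i-5p: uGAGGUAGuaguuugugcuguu
miR-17-5p: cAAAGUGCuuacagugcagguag
miR-18a-5p: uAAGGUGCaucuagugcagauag
miR-21a-5p: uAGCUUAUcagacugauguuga
miR-22-3p: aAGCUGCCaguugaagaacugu
miR-193b-3p: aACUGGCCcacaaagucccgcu
miR-193a-3p: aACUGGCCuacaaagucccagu
miR-203-3p: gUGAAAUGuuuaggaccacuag
miR-425-5p: aAUGACACgaucacucccguuga
The arm shown lies at chr10:122985698-122985719 for let-7i and at chr11:86584120-86584141 for miR-21a, both on the minus strand of GRCm38.

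The 730 regions met the starts of 855 noncoding genes, 1 gene in 621 regions and 2 to 5 genes in 109. lncRNAs were the main type, with 551 genes at 549 regions (75.2%). tRNA genes lay at 79 regions, microRNA genes at 46, and snoRNA genes at 23, while 54 regions had a pseudogene or transcribed pseudogene, 20 an snRNA, and 3 an immunoglobulin heavy chain V segment, called in HFD-LSK replicate 2 alone. Relative to the annotation, tRNA genes had the higher share, with 123 of 430 (28.6%) at these regions, compared with 4.33% of lncRNA genes, 4.32% of microRNA genes, 2.91% of snoRNA genes, and 0.271% of pseudogenes. A larger share of lncRNA genes, 9.44%, lay at regions outside this set, most of which also met a coding start. Of the 123 tRNA genes, 122 had no strand in the annotation, so their start was not known. A noncoding gene of unknown strand counted when both of its ends were within 1 kb of the region. Without such genes, a setting that was not planned, 665 regions remained.

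A region counted as called in a list when a peak of that list overlapped it. Of the 730 regions, 133 (18.2%) were called in all 7 lists, compared with 38.5% at coding starts and 10.4% away from starts. A further 196 (26.8%) were called in 1 list, compared with 8.25% at coding starts and 45.3% away from starts. As a share of all regions, noncoding-start regions fell from 7.02% of those called in 1 list to 3.03% of those called in all 7. Of the 196, HFD-LSK replicate 2 alone held 107 and HFD-LSK replicate 3 held 72, and the other 5 lists held 17 together. Recurrence therefore lay between that of coding starts and that of regions away from starts, as the plot of recurrence over the lists shows.

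**Figure D1:**
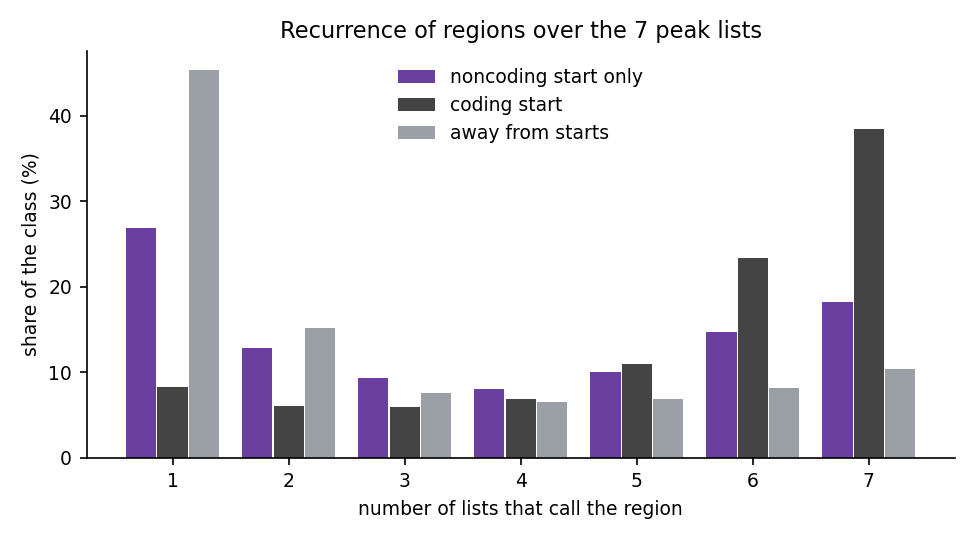
Share of regions (%) by the number of the 7 peak lists that call them, for regions at noncoding starts only (n = 730), at coding starts (n = 10007), and away from starts (n = 3899). Noncoding-start regions have 26.8% in 1 list and 18.2% in all 7.

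Within each library, these regions were called less often, ranked lower, and were narrower than regions at coding starts. The share called was 21.7 percentage points lower on average (SD 7.16, n = 7 libraries, lower in 7 of 7) than at coding starts and 14.0 points higher (SD 4.09, higher in 7 of 7) than away from starts. Fold enrichment, the height of a summit over its local background, was ranked within each list as a percentile with 100 at the top. The median percentile of the called noncoding-start regions was 39.9, 36.3, and 48.1 in HFD-LSK replicates 1 to 3 and 37.6, 43.2, 42.7, and 39.3 in LFD-LSK replicates 1 to 4. It was 14.1 points below that of coding starts (SD 4.29, lower in 7 of 7) and 7.0 points above that of regions away from starts (SD 5.01, higher in 6 of 7 and equal in LFD-LSK replicate 4). The median peak width was 119 bp less than at coding starts (SD 73.6, narrower in 7 of 7) and 118 bp more than away from starts (SD 80.1, wider in 7 of 7). In exact two-sided sign-flip permutation tests over the 7 libraries, adjusted over 6 tests, p was 0.0188 for 5 of these differences and 0.0313 for the percentile against regions away from starts, and the smallest unadjusted p the design allows is 0.0156. The width difference from coding starts was 1.29 bp with lists of equal length and −15.9 bp at a common calling limit, and neither passed the test. The percentile difference from regions away from starts was −0.286 points with lists of equal length and no longer passed the test under most other settings.

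**Figure D2:**
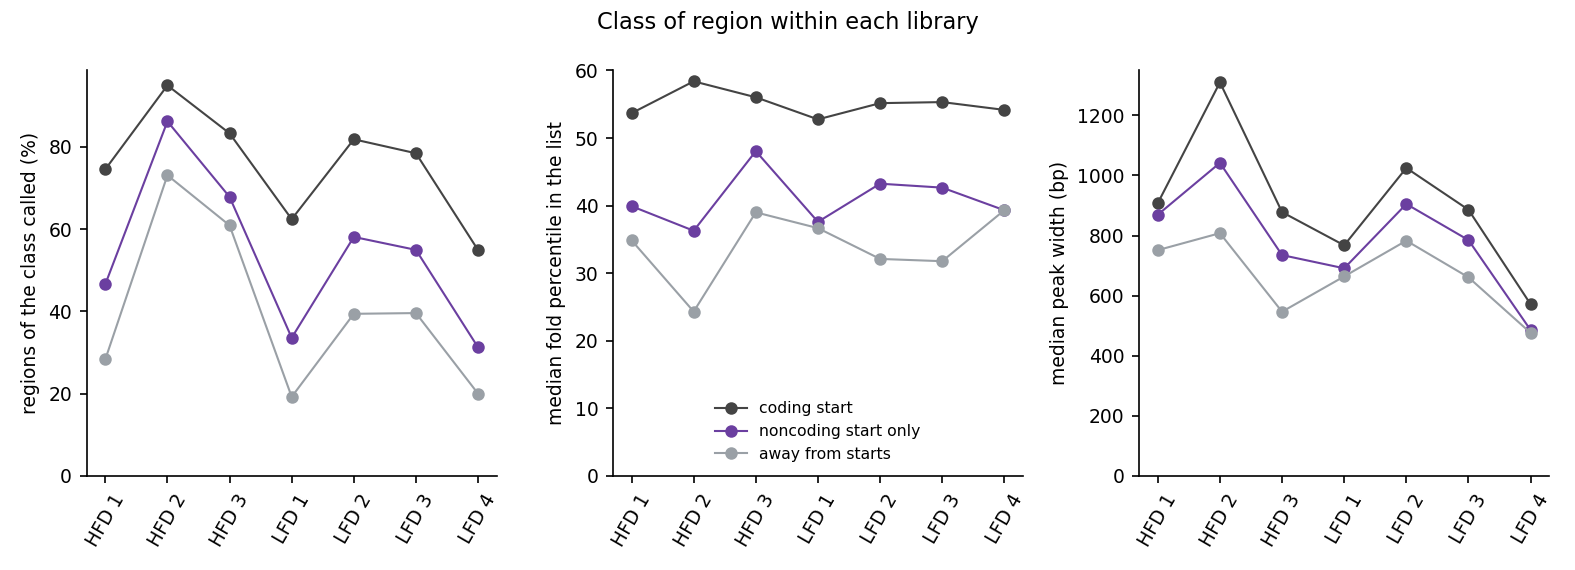
Share of regions called (%), median fold percentile, and median peak width (bp) in each of the 7 libraries for regions at coding starts, at noncoding starts only, and away from starts. In the middle panel the noncoding-start regions lie between 36.3 and 48.1, below coding starts in each library.

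Part of these regions lay where a coding gene has another start. RefSeq promoters of coding transcripts other than the outermost one came within 1 kb of 141 of the 730 regions (19.3%). Of these 141, 41.8% were called in all 7 lists, compared with 12.6% of the other 589. The 141 had a median percentile of 54.9 to 62.6 across the libraries, against 31.1 to 46.1 in the 589, a mean difference of 22.9 points (SD 6.79, higher in 7 of 7 libraries). Their peaks were 365 bp wider (SD 161, wider in 7 of 7). Both differences had an adjusted p of 0.0182 in the exact sign-flip test, over 21 tests added after the first results were seen. Without the 141, the percentile was 0.915 points above regions away from starts (SD 5.69, lower in 3 of 7 libraries, adjusted p = 0.672 by the same exact test), so the call against that class was lost, and the width difference of 37.0 bp was lost too (adjusted p = 0.279 by the same exact test). The share called stayed 8.96 points above regions away from starts (SD 3.96, higher in 7 of 7, adjusted p = 0.0182 by the same exact test).

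The regions lay from 1013 bp to 1220640 bp from the nearest coding start, with a median of 16576 bp. Within 3 kb of a coding start there were 107 regions, 29.9% of them called in all 7 lists, whereas of the 162 regions over 50 kb away 13% were. Between these, 17.7% of 175 regions at 3 to 10 kb and 17.1% of 286 at 10 to 50 kb were called in all 7. The share called was 10.8 points higher within 3 kb than beyond 50 kb (SD 4.95, higher in 7 of 7 libraries, adjusted p = 0.0182 by the exact sign-flip test). The body of a coding gene overlapped 299 regions, of which 26.1% were called in all 7 lists, and 431 lay outside coding genes, of which 12.8% were. All 141 regions near another coding transcript start, 41.8% of them called in all 7 lists, were among the 299. Of the 589 regions with no such start, inside and outside coding genes together, 12.6% were called in all 7 lists. All 431 regions outside coding genes were among these 589. Regions inside coding genes with no such start therefore did not have a higher share than those outside. No test was made of this. The 5 regions called in all 7 lists that were farthest from a coding start were those at Mir1904 (376319 bp from Rab3c, inside Pde4d), Gm26901 (310321 bp from Pcmtd1), Peg13 (250206 bp from Trappc9), Mir193b with Gm32817 (191359 bp from Mrtfb), and 3110053B16Rik (189732 bp from Asap2). Peg13 is an imprinted lncRNA inside Trappc9, and its mean percentile of 34 was the lowest of these 5.

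The direction of the lncRNA relative to the nearest coding gene was counted for the 478 regions with a single lncRNA of known strand. Of these, 50% pointed toward the nearest coding start on the opposite strand, 19.7% pointed away from it on the opposite strand, and 30.3% ran on the same strand. Within 3 kb, 55 of 63 pointed toward the coding start. Among all 546 annotated lncRNA starts at 1 to 3 kb from a coding start, 331 (60.6%) point toward it, and 14.8% of those lay at a noncoding-start region compared with 2.27% of the 176 that point away. Over all distances the shares were 6.99% and 3.12%. No test was made of these counts, since neighboring starts share regions.

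The summits of the peaks lay more often upstream of the start, and were more spread out around it, than at coding genes. In each library the strongest peak of a region was placed relative to the start along the direction of transcription. For the 478 single-lncRNA regions the median summit lay between −3 and 69.5 bp from the start across the 7 libraries, and 48.2% to 57.5% of summits were downstream. For 8819 regions with a single coding start, the median lay between 187 and 230 bp and 79.2% to 85.6% were downstream. Within 500 bp of the start on either side lay 61.1% to 71.2% of the lncRNA summits and 75.5% to 81.5% of the coding ones, and over 1 kb away lay 10.9% to 15.1% and 6.75% to 8.64%, respectively. The signed median differed by −185 bp (SD 22.4, lower in 7 of 7 libraries, adjusted p = 0.0182 by the exact sign-flip test). With regions at another coding transcript start left out on the one side and those at a noncoding start on the other, the difference was −106 bp (SD 27.2, lower in 7 of 7, adjusted p = 0.0182 by the exact sign-flip test). In these sets the lncRNA median lay between 63.5 and 149 bp, with 54.6% to 64.0% of summits downstream. The coding median lay between 193 and 234 bp, with 80.6% to 86.9% downstream. How exactly annotated lncRNA starts mark transcription starts was not tested.

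**Figure D3:**
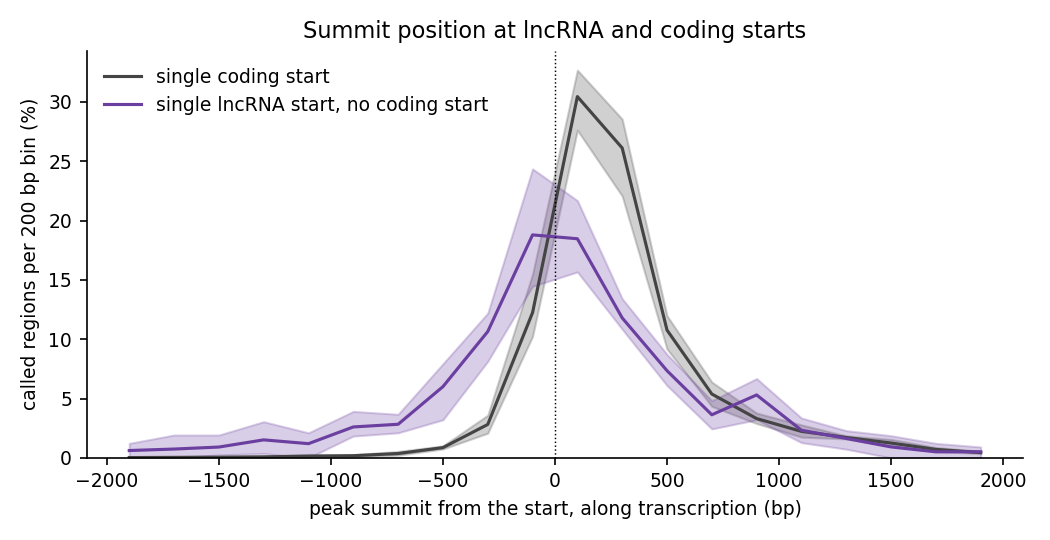
Position of the strongest summit relative to the gene start, in bp along transcription, as the share of called regions (%) per 200 bp bin; lines are means over the 7 libraries and bands their range. Summits at single coding starts lie mostly downstream (median 187 to 230 bp), and those at single lncRNA starts spread on both sides (median −3 to 69.5 bp).

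The promoters of lncRNAs with a recurrent region held more CpGs than those of lncRNAs with no region. A RefSeq window was found for 460 of the 551 lncRNA genes, outside chromosome 18. The median number of CpGs was 22 for the 98 lncRNAs at noncoding-start regions called in all 7 lists, 13 for 257 at those in 2 to 6 lists, 8 for 105 at those in 1 list, and 3 for 8068 lncRNAs with no region. An observed-to-expected CpG ratio above 0.6 was found in 65.3%, 49.4%, 23.8%, and 5.60% of these groups, respectively, and in 86.4% of 3754 coding promoters at regions called in all 7 lists. At the 49 lncRNAs in all 7 lists with no other coding transcript start, 61.2% passed that ratio.

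Short promoter motifs followed the same order for the CpG-holding ones. The GC box GGGCGG, searched on both strands and itself holding a CpG, was present in 63.3% of lncRNA promoters at regions called in all 7 lists, 30.5% of those in 1 list, and 9.30% of those with no region, against 35.9% of all 27024 promoters. The ETS core CCGGAA, searched on both strands and also holding a CpG, was present in 23.5%, 13.3%, and 5.90% of these groups and in 15.2% of all promoters. TATAAA, searched on the strand of the gene and overlapping neither of the other motifs, was present in 4.08%, 2.86%, and 9.71% and in 8.88% of all promoters. A match is a run of letters and not a measured binding site.

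**Figure D4:**
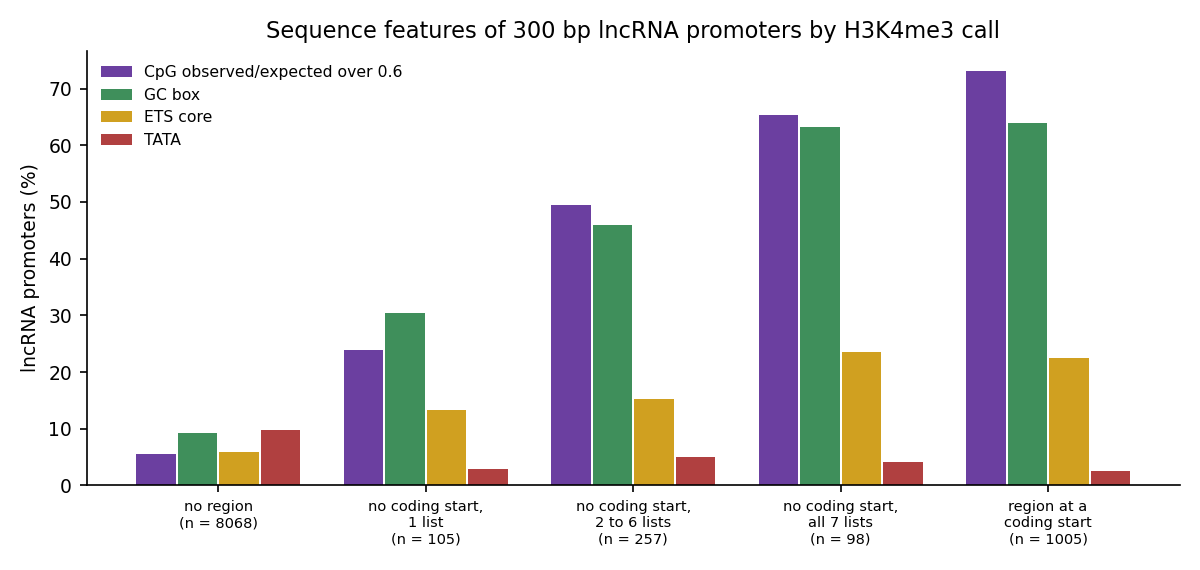
Share (%) of 300 bp lncRNA promoters with a CpG observed-to-expected ratio above 0.6, a GC box, an ETS core, or TATAAA, by the H3K4me3 region at the start; n is the number of genes. The CpG share is 5.60% with no region and 65.3% at noncoding-start regions called in all 7 lists.

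The 10 regions named next stood nearest the top of the lists among the 133 called in all 7, and 6 of them were also within 1 kb of another coding transcript start. The Gm46771 region (chr2:148680465-148681727, by Gzf1) had the highest mean percentile, at 97.6, 92.0, and 99.4 in HFD-LSK and 82.5, 92.7, 96.8, and 86.1 in LFD-LSK. The 2810410L24Rik region (chr11:120187396-120190591), 36045 bp from the start of Slc38a10, was at 96.2, 96.9, and 82.7 in HFD-LSK and 88.7, 84.6, 97.1, and 80.4 in LFD-LSK. The C030034I22Rik region (chr17:69416528-69418194) was at 91.9, 94.1, and 50.1 in HFD-LSK and 93.1, 99.3, 64.3, and 95.3 in LFD-LSK, so replicates 3 of both diets were low. The others, with mean percentiles of 82.4 to 87.8, were at Mir1893, 9330151L19Rik, Gm46600, 4930404I05Rik, 1700052K11Rik, Snhg9 with Snora78 and Snora64, and A630072M18Rik. The diets overlapped at 9 of these 10 regions and did not at 4930404I05Rik, at 87.2 to 95.1 in HFD-LSK and 74.8 to 86.1 in LFD-LSK.

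The widest of the 133 were at Gm30189, Gm38708, 1700016A09Rik with Mir7687, Gm7854, and Gm33126, with mean widths of 2622 to 2958 bp. Gm30189 lies by Gnas, and its peaks covered 3040, 4589, and 2398 bp in HFD-LSK and 2815, 3530, 2211, and 2120 bp in LFD-LSK. Gm38708 lies by Gata2, which encodes a transcription factor needed in hematopoietic stem cells, and its peaks covered 2724, 5433, and 2767 bp in HFD-LSK and 1771, 3037, 3020, and 1581 bp in LFD-LSK. HFD-LSK replicate 2 had the widest peak at both, and 4 of the 5 regions also met another start of a coding transcript (Gnas, Gata2, Gse1, or Fam78a).

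lncRNAs that host snoRNAs had regions more completely than the other lists. Of 22 such genes, 14 lay at noncoding-start regions, 5 of them called in all 7 lists, and 6 more lay at a region shared with a coding gene. Snhg5, Snhg9, Snhg17, Snhg20, and Dancr were called in all 7, with mean percentiles of 62.4, 83.2, 59.3, 44.1, and 58.8. Snhg3, Snhg8, Snhg15, Snhg16, and Epb41l4aos were called in 6. Gas5, Snhg1, Snhg10, Snhg18, Cep83os, and Zfas1 started beside a coding gene and were therefore outside the rule.

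Of 22 microRNA hosts and microRNAs with a name in the annotation, 6 lay at noncoding-start regions and 3 of them were called in all 7 lists. Dleu2, the host of miR-15a and miR-16-1, was at 88.1, 96.2, and 50.9 in HFD-LSK and 46.8, 97.3, 85.7, and 85.4 in LFD-LSK. Mir22hg, the host of miR-22, was at 13.6, 64.7, and 39 in HFD-LSK and 2.67, 31.3, 84.9, and 71.6 in LFD-LSK, which spans most of the list within a single diet. Mir21a was at 45.9, 75.8, and 8.93 in HFD-LSK and 32.4, 55.8, 59.8, and 10.9 in LFD-LSK.

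By the microRNAs printed above, the let-7i region (chr10:122984915-122986841) was at 50.5, 82.3, and 89.4 in HFD-LSK and 57.8, 70.9, 94.4, and 75.8 in LFD-LSK. let-7 microRNAs restrain growth genes and rise as progenitors differentiate. The region at Mir17 and Mir18, the first members of the miR-17-92 cluster that is active in dividing progenitors, lay at chr14:115040030-115042885 and was at 46.7, 84.9, and 36.4 in HFD-LSK and 70.3, 78.3, 71.0, and 33.0 in LFD-LSK. It ended before the mature miR-17-5p, which begins at 115043684, and the annotated start of the host Mir17hg had no region. A microRNA gene start is the annotated one, and whether transcription starts there was not tested. Apart from Mir1893, the other microRNA genes at regions called in all 7 lists were Mir203 with Gm51289, Mir193b, Mir425, Mir760, Mir1904, Mir6516, Mir6976, and Mir7687, with mean percentiles of 42.1 to 73.3. The diets overlapped at each of these but Mir425.

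Of 52 lncRNAs studied in blood or immune cells or known from other tissues, 20 lay at noncoding-start regions and 6 of them were called in all 7 lists. These 6 were Chaserr, Lockd, Oip5os1, AI506816, Peg13, and Mir22hg. Chaserr was at 94.5, 69.2, and 57.2 in HFD-LSK and 94.2, 92.9, 92.4, and 61.9 in LFD-LSK. Lockd, which lies downstream of the cell-cycle inhibitor gene Cdkn1b, was at 55.0, 48.0, and 95.9 in HFD-LSK and 33.6, 85.0, 71.0, and 45.3 in LFD-LSK. Malat1 and Neat1, the RNAs of nuclear speckles and paraspeckles, were each called in 6 lists, Malat1 not in LFD-LSK replicate 4 and Neat1 not in HFD-LSK replicate 1. Lncpint, a target of p53, was called in 6 lists with a mean percentile of 70.0. Morrbid, which regulates the life span of myeloid cells, had a region in 1 HFD-LSK list, and Pvt1 had one in 4 lists.

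Of 22 genes of RNA polymerase III, catalytic, and other small RNAs, 5 lay at noncoding-start regions and 8 more at a region shared with a coding gene, each of those 8 called in 6 or 7 lists. Among the 8 were Rmrp and Rpph1, the RNAs of RNase MRP and RNase P, called in all 7 beside Ccdc107 and Parp2. Of the 5, Scarna2, a guide RNA for modification of small nuclear RNAs, was called in all 7 lists. Terc, the telomerase RNA, was called in 2 lists, 1 of each diet. Rny3 (a Y RNA), Rn7s2 (the 7SL RNA), and Vaultrc5 (a vault RNA) were called in 2 HFD-LSK lists and no LFD-LSK list. The same held for 41 of the 730 regions (5.62%), and the share of all regions with this pattern was not counted. Without HFD-LSK replicate 1, 40 of 728 regions were called in every remaining HFD-LSK and no LFD-LSK list, against 3.98% of all regions. Regions called in any number of HFD-LSK lists alone were 30.4% of the 730 and 20.8% of all regions. For Rny3 and Rn7s2 the 2 lists were HFD-LSK replicates 2 and 3, which had the lowest calling limits. The 79 regions with tRNA genes had 1 tRNA gene in 45 cases and 2 to 5 in 34, and 27 of them lay on chromosome 13 between 21159049 and 23518436. They were called in 46, 76, and 49 cases in HFD-LSK and 32, 58, 47, and 18 in LFD-LSK, 9 of them (11.4%) in all 7 lists. tRNA and 7SL genes have near-identical copies, and how reads that fit several copies were placed is not given in the sources used here.

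The diet comparison asked whether HFD moved the mark at these noncoding starts. More of the regions were called in HFD-LSK, with 340, 629, and 495 in replicates 1 to 3 (488 ± 145, SD, n = 3) compared with 245, 424, 401, and 228 in LFD-LSK replicates 1 to 4 (325 ± 102, SD, n = 4). The diets overlapped. As a share of the regions a list called, they made up 3.81%, 4.84%, and 4.41% in HFD-LSK and 3.38%, 4.17%, 4.09%, and 3.50% in LFD-LSK, and the diets overlapped here too. The lists differ in how low they reach, and the lowest summit called was 79.7, 29.8, and 34.5 times the mean coverage of the library in HFD-LSK and 98.3, 58.1, 59.98, and 101 times in LFD-LSK, as recovered from the fold and p of each peak. At a common limit of 101 times the mean coverage, the counts were 326, 353, and 276 in HFD-LSK and 245, 345, 286, and 228 in LFD-LSK. The difference in means was then 42.3 regions, compared with 163.5 with the lists as deposited.

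**Figure D5:**
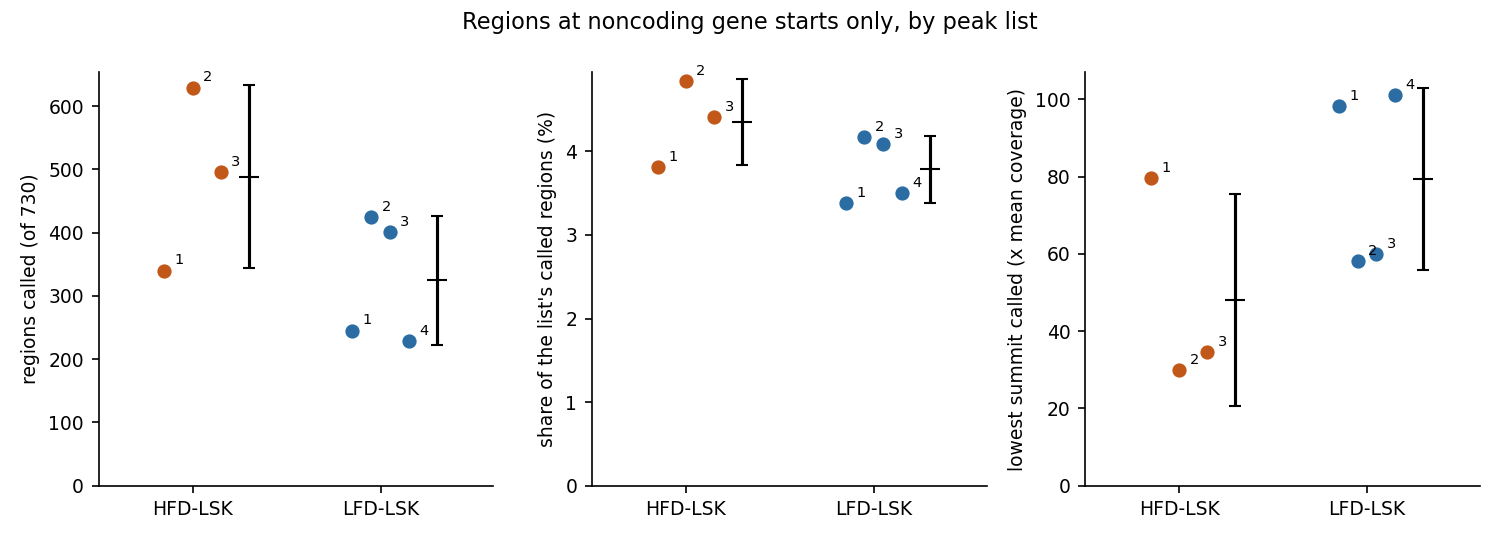
Number of the 730 noncoding-start regions called, their share (%) of the regions each list called, and the lowest summit called (as times the mean coverage), for 3 HFD-LSK and 4 LFD-LSK libraries; points carry the replicate number, and black bars are mean ± SD. Lists that reach lower summits, such as HFD-LSK replicate 2 at 29.8, call more of the regions (629).

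Of the 730 regions, 1 (0.137%) was called in all 3 HFD-LSK lists and no LFD-LSK list, against 0.3% (44) of all 14659 regions. This region, at Gm33224 and Gm39693 (chr1:166047816-166048529), had 19, 13, and 8 fragments at its summit in HFD-LSK replicates 1 to 3 and percentiles of 1.37, 4.02, and 39. Its summits were 94.6, 48.5, and 69.1 times the mean coverage, below the calling limits of 98.3 and 101 of LFD-LSK replicates 1 and 4. The limits of LFD-LSK replicates 2 and 3 were 58.1 and 59.98, below the summits of 94.6 and 69.1 and above that of 48.5. No region was called in all LFD-LSK and no HFD-LSK lists among the 730 or among all 14659 (0%). By Fisher's exact test the lowest adjusted p over all regions was 1, with 1 of the 730 at an unadjusted p under 0.05. Counting any number of lists, 222 regions (30.4%) were called in HFD-LSK lists alone, against 20.8% of all regions, and 18 (2.47%) in LFD-LSK lists alone, against 2.58%. Of the 222, HFD-LSK replicates 2 and 3, which reach the lowest summits, held 107 and 72 as the single list. Without HFD-LSK replicate 1, 40 of 728 regions were called in every remaining HFD-LSK and no LFD-LSK list, against 3.98% of all regions. The count was 3 without HFD-LSK replicate 3 (0.463% of all regions). Leaving out LFD-LSK replicate 2, 3, or 4 gave 12, 5, and 2 regions, against 1.47%, 0.871%, and 0.438% of all, so the share rose over all regions as well.

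Among the 133 regions called in all 7 lists, the percentile was higher in every HFD-LSK than every LFD-LSK library for 7 (5.26%, against 3.69% of all 4395 such regions) and lower for 2 (1.5%, against 1.5%). The median difference was 5.79 points, against a shift of 2.53 points over all 4395 regions. By position counted from the top of each list the median was 568 places farther from the top in HFD-LSK, against 657 places over all 4395 regions, so the sign of both turned with the scale. No region passed an adjusted threshold of 0.05 in the exact permutation test over the 35 splits (lowest adjusted p 0.939), and 3 of the 133 (2.26%) had an unadjusted exact permutation p under 0.05, against 2.55% of all 4395. The smallest p this test allows is 0.0286.

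The 3 regions with the largest differences toward HFD-LSK were at 2900024J01Rik, H2-K2, and Gm46404 with 2 tRNA genes. The 2900024J01Rik region (chr1:180777403-180778610), 34995 bp from H3f3a, was at 77.5, 69.3, and 89.4 in HFD-LSK and 51.6, 24, 7.59, and 61.9 in LFD-LSK. H2-K2 is annotated as a transcribed pseudogene of the class I major histocompatibility complex, 21258 bp from its relative H2-K1, with which it may share reads. It was at 66.3, 73.5, and 93.2 in HFD-LSK and 19.5, 43.3, 50.8, and 33.0 in LFD-LSK. The Gm46404 region, on chromosome 13 within the tRNA genes named above, was at 77.5, 81.4, and 89.1 in HFD-LSK and 75.2, 62.5, 30.1, and 6.83 in LFD-LSK, so LFD-LSK replicate 1 came close to the HFD-LSK values. Their differences were 42.4, 41.1, and 39 points, each with an adjusted p of 0.939 by the exact permutation test.

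Both regions that ranked lower in HFD-LSK were also near another start of a coding transcript. The Gm39478 region (chr11:117265189-117268134, by Septin9) was at 53.7, 30.7, and 50.1 in HFD-LSK and 70.3, 67.7, 94.9, and 69.5 in LFD-LSK. The Mir425 region (chr9:108569771-108570990, by Dalrd3) was at 40.2, 50.8, and 43.2 in HFD-LSK and 64.1, 74.9, 71.0, and 51.2 in LFD-LSK. It does not cover the mature miR-425 sequences, the last of which ends at 108568850. The differences at Gm39478 and Mir425 were −30.8 and −20.6 points, with an adjusted p of 0.939 by the exact permutation test.

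The 9 regions did not separate on a second scale. When the fragments at each summit were divided by the mean coverage of the library, the diets overlapped at all 9. At H2-K2, for example, the summits were 234, 190, and 147 times the mean coverage in HFD-LSK and 164, 180, 135, and 191 in LFD-LSK. On that scale 1 of the 133 regions was higher in every HFD-LSK library (0.752%, against 0.341% of all 4395) and 3 were lower (2.26%, against 1.73%). These 4, chosen after their values were seen, were at B430319G15Rik, higher in HFD-LSK, and at Hk1os, 4930578M01Rik, and Gm17552, lower. The Hk1os summits were 279, 280, and 268 times the mean coverage in HFD-LSK and 337, 401, 405, and 337 in LFD-LSK.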

How the data were processed

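H3K4me3 was measured in 3 HFD-LSK and 4 LFD-LSK libraries, by CUT&Tag in the study's methods and CUT&RUN in the sample titles. The 7 IgG libraries were not analysed here. Per the labels, the authors used Trim Galore, Bowtie2, Picard, MACS2, bedtools, HOMER, and featureCounts with GRCm38. The study's methods name another build and peak caller, and the deposited coordinates match coding starts of GRCm38. Each deposited peak list gives a score (10 times the −log10 p), a fold enrichment ratio at the summit over local background, and the −log10 p and −log10 q, per library with no pooling. The lowest −log10 p was 5.01. Read depth was not in these lists, and summit fragments and mean coverage were recovered from the fold and p. The recovery took each library as scaled to a control.

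Peaks were merged and placed on RefSeq gene starts (GRCm38.p6, outermost start of each gene) with a window of 1 kb. For a noncoding gene of unknown strand, both ends had to lie within 1 kb of the region. Each library's values were compared between classes by exact sign-flip permutation, diets by exact permutation over 35 splits or Fisher's exact test over all regions, two-sided, with Benjamini-Hochberg adjustment and a threshold of 0.05. Named regions were those of the gene lists, the 10 with the highest mean percentile, the 5 widest and the 5 farthest from a coding start among regions called in all 7 lists, those called in 1 diet alone, the 3 largest diet differences without overlap in each direction, and microRNA genes in all 7 lists. A further marker list is not reported here. Members and lists were chosen with earlier results of these data known. The scripts were tested on simulated data. Alternatives changed the peak threshold, list length, merging, cover, window, ranking, calling limit, and libraries. Python 3.11.15, numpy 2.4.6, pandas 2.3.3, scipy 1.17.1, and matplotlib 3.10.9 were used.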

Additional observations from a re-analysis of the deposited data

Results flagged for a closer look

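In LFD-LSK, 2 of 42 values tested had 1 library far from the other 3, and chance gives about 1 in 20. The region at Snhg9, Snora78, and Snora64 was at a percentile of 70.2 in LFD-LSK replicate 4, with the other 3 LFD-LSK libraries at 97.3, 99.6, and 99.9. The Gm39478 region was at 94.9 in LFD-LSK replicate 3, with the other 3 at 67.7 to 70.3.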

How the results depend on the processing

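The weakest peaks called rest on 4 to 21 fragments at the summit, batch was not in the labels, and the lists with the lowest calling limits called the most regions. The 730 regions became 446 with lists of equal length and 451 at a common calling limit, and the difference in regions called per list, 163.5 as reported, became 18.9 and 42.3. The difference in their share of a list, 0.569 points, was 0.115 at the common limit. The count called in every HFD-LSK and no LFD-LSK list, 1 as reported, was 3 of 656 with −log10 q of at least 5 (0.618% of all regions). It was 0 of 446 with lists of equal length (0.205% of all) and 4 of 729 with 50% cover (0.744%). It was 0 of 692 with a 500 bp window (0.3%) and 2 of 451 at the common limit (0.251%). When 1 library was left out it ranged from 1 to 40 (0.375% to 3.98% of all regions). The reverse count, 0 as reported, was 1 with lists of equal length and 1 at the common limit, where its share over all regions was not counted. The 7 regions ranked higher in HFD-LSK became 3 with the q threshold, 2 with lists of equal length, 2 with 50% cover, 4 at the common limit, and 10 to 22 without 1 library, the 22 being 16.1% against 13.1% of all regions. The 10, without LFD-LSK replicate 1, were 6.29% against 5.04% of all regions. Chosen after seeing the data, position from the top gave 2 and summit coverage gave 1. The 2 ranked lower became 0 with the q threshold (1.38% of all regions) and 0 with 50% cover (2.90% of all). They became 1 with lists of equal length (1.82% against 2.78%) and 1 with a 3 kb window (0.855% against 1.5%). They were 1 with a 500 bp window (0.714% against 1.5%) and 1 at least 5 kb from a coding start (1.12% against 1.5%). By position they were 7 (5.26% against 4.19%), and without 1 library 2 to 9. The 9, without HFD-LSK replicate 2, were 6.77% against 6.10% of all regions.

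The percentile difference from regions away from starts, 7.0, no longer passed the test at 4.83 (q threshold), 5.91 (peaks within 500 bp merged), 6.13 (50% cover), 3.14 (3 kb window), 6.53 (500 bp window), 6.41 (ranks by −log10 p), 3.12 (common limit), 4.54 (at least 5 kb away), and 0.915 (other coding transcript starts left out), and it turned to −0.286 with lists of equal length. Without 1 library it was 6.16 to 8.17. The call was lost in 6 of 7 cases, with an adjusted p of up to 0.125 in the exact sign-flip test. These 6 cases kept LFD-LSK replicate 4, where the difference was 0 with all libraries in. Over 6 libraries with such a 0, the sign-flip test cannot pass whatever the other values. The lost calls therefore do not decide whether the difference rests on 1 library. The width difference from that class was 96.9 bp with the q threshold, 83.9 bp at least 5 kb away, and 37.0 bp without other coding transcript starts, none past the test. The width difference from coding starts turned to 1.29 bp with lists of equal length and was −15.9 bp at the common limit. The causes were not tested.

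With the replicate block, pairing equal replicate numbers, 2 of 730 regions (0.274%, against 0.437% of all) were called in 3 HFD-LSK lists and none of LFD-LSK 1 to 3. In all 3 pairs, 35 of 195 (17.9%, against 18.4% of all regions) ranked higher in HFD-LSK and 16 (8.21%, against 8.51%) lower. Deviations of libraries with the same number correlated at 0.186, 0.0167, and 0.0522 over 4395 regions, and only the first was over 0.1. Each HFD-LSK library correlated best with the LFD-LSK library of its own number, whereas LFD-LSK replicate 2 correlated best with HFD-LSK replicate 3 (0.0411). The labels do not say what the numbers mark, so they were not taken as pairs.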

Other observations

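Of the 551 lncRNA genes at these regions, 412 were also typed lncRNA in GENCODE and 7 were typed protein-coding. Of the 26 transcribed pseudogenes 9 were typed protein-coding there, as was 1 gene typed misc_RNA, so the rule that leaves out coding starts depends on the annotation. Regions with a pseudogene or transcribed pseudogene were called in all 7 lists in 9.26% of 54 cases. Snhg8, a snoRNA host called in 6 lists, was at percentiles of 91.1, 78.7, and 88.8 in HFD-LSK and 27.9, 60.7, and 52.8 in LFD-LSK replicates 1 to 3. It was singled out after its values were seen, and no test was made because LFD-LSK replicate 4 did not call it.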
